A study of Homo sapiens with 6 samples.

Results

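Fibronectin, periostin and other glycoproteins of the extracellular matrix were followed through 6 RNA-seq libraries made from MRC5, human lung fibroblasts of embryonic origin that had been immortalised with hTERT. The 10 genes were taken by symbol from a list of matrix glycoproteins: FN1, POSTN, TNC, THBS1, THBS2, SPARC, FBLN1, FBLN5, ELN and FBN1. Each had 1 row in both expression tables, out of 25368 symbols in all. In the JUN overexpression table the cells carried an adenovirus with an empty vector (empty vector control), FLAG-tagged JUN (JUN WT) or FLAG-tagged JUN whose JNK phosphorylation sites had been changed to alanine (JUN AA). These cells were exposed to virus for 2 h and cultured for 3 days. In the JNKi table, MRC5 cells stood beside iCAFs, which are MRC5 cells kept for 7 days in conditional medium (CM) from MDA-MB-231, a human breast cancer line, and beside iCAFs given the JNK inhibitor JNK-IN-8 at 1 µM for 48 h (iCAFs+JNKi). The paper collected this CM in medium without serum, maintained MRC5 with serum, and does not say whether serum was added to the CM. Differences between iCAFs and MRC5 may thus reflect serum and culture as well as tumour factors, and these cannot be told apart. The labels do not say whether the iCAFs library received the vehicle of the inhibitor. All of the cells derive from 1 immortalised line, so the iCAFs are a culture model and not fibroblasts taken from a tumour.

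Each condition had 1 library, and no comparison has a replicate check, an SD or a p-value. Values are FPKM, fragments scaled to transcript length and to library size, which allows genes of different length to be set side by side within a library. A difference is one of log2(FPKM + 1), which understates the change of low genes, and 2-fold stands for a difference of 1 on that scale. The tables were compared only within themselves, and the background of a comparison is every gene that averaged 1 FPKM or more over the 3 libraries of its table. Read depth is unknown. In bulk RNA, fewer cells of a type and less RNA per cell cannot be told apart.

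Fibronectin is the adhesive glycoprotein that fibroblasts assemble into fibrils through integrins and onto which collagen and other matrix proteins are laid. Periostin, tenascin C, the thrombospondins and SPARC are matricellular proteins, which sit in the matrix and tune adhesion, growth factor activity and collagen assembly more than they bear load, and which are known for their abundance in healing wounds and tumour stroma. Elastin is the rubber-like core of elastic fibres, fibrillin 1 forms the microfibrils that surround it, and fibulins link the components. JUN is a subunit of the transcription factor AP-1, and JNK is the kinase that phosphorylates it.

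The upstream sequences of FN1, POSTN and TNC are shown because the factor manipulated here binds DNA at short motifs, and because these upstream sequences hold different sets of the motifs searched. They are the 250 bases before the annotated start on GRCh38.p14, from RefSeq, printed 5′ to 3′ on the strand of the gene, with motifs in capitals. Capitals mark the AP-1 heptamer TGAGTCA in POSTN and the CRE octamer TGACGTCA in FN1. In FN1, POSTN and TNC they also mark a TATA-like hexamer, ATATAA, where it begins 20 to 35 bases before the start. Another ATATAA farther upstream in POSTN is left in lower case.
FN1, chr2:215436069-215436318, minus strand: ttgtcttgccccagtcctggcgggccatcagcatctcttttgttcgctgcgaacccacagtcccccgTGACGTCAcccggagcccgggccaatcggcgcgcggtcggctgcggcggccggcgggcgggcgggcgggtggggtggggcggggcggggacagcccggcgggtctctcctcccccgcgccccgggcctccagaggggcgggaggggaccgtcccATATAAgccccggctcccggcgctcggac
POSTN, chr13:37598769-37599018, minus strand: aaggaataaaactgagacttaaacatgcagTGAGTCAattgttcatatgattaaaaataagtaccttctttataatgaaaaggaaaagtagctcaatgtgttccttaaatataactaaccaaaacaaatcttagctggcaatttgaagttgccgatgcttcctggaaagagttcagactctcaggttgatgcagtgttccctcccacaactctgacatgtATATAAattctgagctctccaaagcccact
TNC, chr9:115118158-115118407, minus strand: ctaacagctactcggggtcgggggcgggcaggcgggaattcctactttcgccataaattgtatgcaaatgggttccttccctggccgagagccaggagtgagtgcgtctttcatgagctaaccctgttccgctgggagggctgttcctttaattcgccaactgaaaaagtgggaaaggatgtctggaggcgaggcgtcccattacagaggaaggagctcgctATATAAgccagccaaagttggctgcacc
The heptamer of POSTN began 220 bases before the start, and the octamer of FN1 began 183 bases before it. The heptamer TGAGTCA was searched on both strands, as was the octamer, over 300 bases (250 before to 50 after the start), and 4.95% of 35116 promoters held the heptamer while 1.85% held the octamer. Of the 9 genes with an entry in the promoter table, 2 held a heptamer or octamer and 7 held neither. ELN had no entry. The TATA-like hexamer, chosen after the sequences had been seen, began 20 to 35 bases before the start, on the strand of the gene, in FN1, POSTN, TNC and THBS2 and in 1.20% of all promoters. A match describes letters in this window only.

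JUN itself stood at 25.5 FPKM in empty vector control, 4543 FPKM with JUN WT and 291 FPKM with JUN AA. JUN AA was thus above its control but far below JUN WT, so the forms of JUN differed in level as well as in sequence, and for any result these cannot be told apart. In the JNKi table JUN stood at 57.1 FPKM in MRC5 cells, against 55.3 FPKM for iCAFs and 21.1 FPKM for iCAFs+JNKi. All 10 fibroblast markers examined reached 1 FPKM in every library, with summed levels of 4661 to 6285 FPKM in the JUN overexpression table and 4018 to 6218 FPKM in the JNKi table. In iCAFs+JNKi against iCAFs these markers differed in the same direction as the matrix genes, with 9 of 10 above 0, beside 37.4% of all genes. At least 2-fold higher were 6 of 10, beside 2.25% of all genes. Their median difference was 1.12, and their part in the results was not tested. Against MRC5, 9 of the 10 markers were lower in iCAFs, beside 59.4% of all genes, with a median of −0.43. With JUN WT 8 of them were below control, with a median of −0.75, and with JUN AA 7 were, with a median of −0.45. The shares of all genes below control were 39.1% with JUN WT and 51.4% with JUN AA. Of the other cell types, the epithelial marker CDH1 was listed at 0 in all 6 libraries, the epithelial sum of 19.9 to 57.1 FPKM was mostly the keratins KRT8 and KRT18, no endothelial marker reached 1 FPKM, and the leukocyte sum of 33.2 to 86.0 FPKM was mostly CD68. The smooth muscle list, which myofibroblasts share, summed to 4588, 3278 and 3555 FPKM in empty vector control and then with JUN WT and with JUN AA, and to 1478, 1369 and 2077 FPKM in MRC5 cells, the iCAFs and the iCAFs+JNKi library. Its best known gene, ACTA2, stood at 874 FPKM, 336 FPKM and 280 FPKM, and then at 96.6 FPKM, 52.8 FPKM and 411 FPKM, in the same order. In iCAFs+JNKi against iCAFs ACTA2 differed by 2.94, TAGLN of the same list by 0.34 and CNN1 by 0.36. Against MRC5 these differences were 2.08, 0.29 and −0.33. The smooth muscle list moved with the matrix genes in part, and its share in their differences was not tested.

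With JUN WT, tenascin C was well above control, THBS1 and FBLN1 were lower by under 2-fold, and FN1, FBLN5 and FBN1 lay close to control at 0.065, 0.10 and −0.10. Only TNC was at least 2-fold higher than in empty vector control and no gene that passed the filter was 2-fold lower, beside 6.92% of 10311 background genes higher and 3.39% lower. The 9 genes that passed the filter had a median difference of −0.10, against 0.15 for all genes, and ELN, which did not pass, stood at −1.45. JUN AA sat lower for most: 7 of 9 were below control, beside 51.4% of all genes. FN1, FBLN1 and FBLN5 were below it by at least 2-fold and none was above it by that much. The median was −0.85, against −0.015 for all genes. The background there was 5.29% higher and 3.77% lower. Between the JUN forms, FN1, TNC and FBLN5 were at least 2-fold higher in JUN WT and POSTN was at least 2-fold lower, beside 6.65% and 5.61% of background genes. FN1 did not reach 2-fold there after centring (0.89) or upper-quartile scaling, which left TNC and FBLN5 as the genes called higher. The 9 genes had a median of 0.36 in that comparison, against 0.18 for all genes. All of these comparisons share libraries, so they are not independent of each other.

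The JNKi table showed mixed directions with CM and a single direction with the inhibitor. In iCAFs against MRC5, TNC, THBS1 and ELN were at least 2-fold higher and POSTN was at least 2-fold lower, with a background of 1.94% higher and 1.71% lower among 11780 genes. The median of the 10 genes was 0.10, against −0.061 for all genes. On either side of 0 lay 5 of the 10, beside 40.6% of all genes above 0. In iCAFs+JNKi against iCAFs all 10 genes were higher, against 37.4% of background genes, and POSTN, THBS1, FBLN5 and ELN were at least 2-fold higher. The background was 2.25% higher and 1.97% lower, and the medians were 0.76 for the 10 genes and −0.099 for all genes. In iCAFs+JNKi against MRC5 all 10 were again higher, beside 33.6% of background genes. FN1, TNC, THBS1, FBLN5 and ELN were higher by at least 2-fold, with a background of 3.28% higher and 3.53% lower. The median was 1.05 for the 10 genes and −0.16 for all genes. The iCAFs library enters the first and second of these comparisons with opposite signs.

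**Figure D1:**
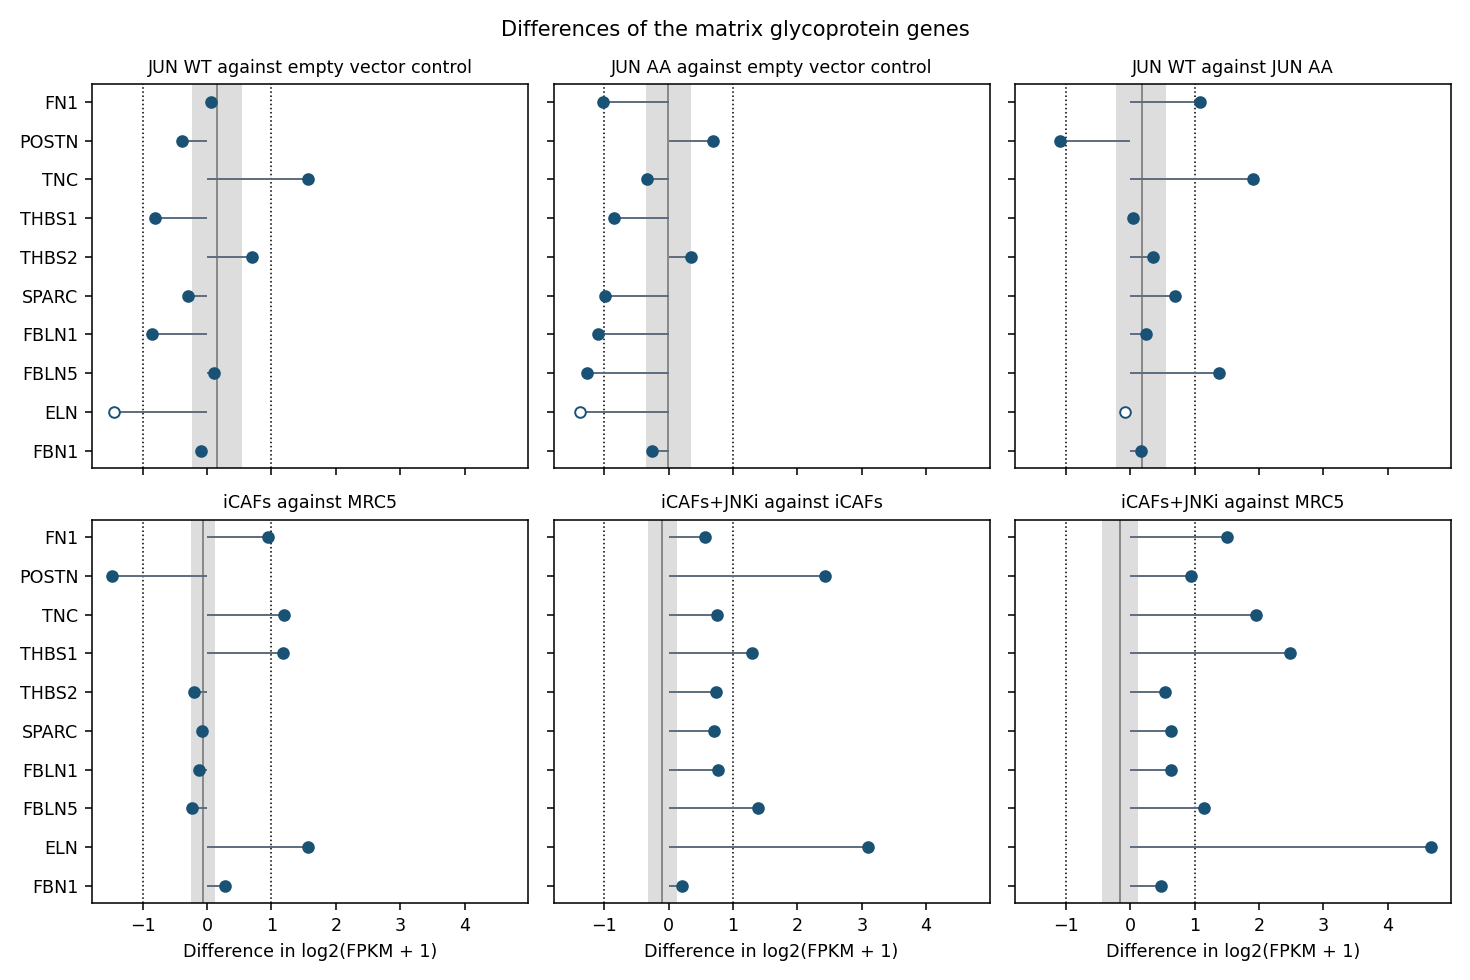
Differences in log2(FPKM + 1) for each of the 10 genes in the 6 comparisons, 1 library a condition, so that no error can be drawn. The 10 genes all lie above 0 in iCAFs+JNKi against iCAFs, beside 37.4% of all genes. In JUN AA against empty vector control 7 of the 9 that passed the filter lie below 0, beside 51.4% of all genes.

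The balance of the background depended on how libraries were scaled. Of all genes called in JUN WT against empty vector control, 67.1% were higher, and 45.5% were after centring on the median gene. In JUN AA against empty vector control 58.4% were higher, and 26.1% were after every library was rescaled to the same sum. In JUN WT against JUN AA 54.3% were higher, and alternatives gave 33.3% to 82.9%. For iCAFs+JNKi against iCAFs the share was 53.3%, and alternatives gave 49.8% to 65.3%. Against MRC5 it was 48.1%, and alternatives gave 41.8% to 65.9%. For iCAFs against MRC5 it was 53.0%, and alternatives gave 47.2% to 58.4%.

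Fibronectin was the most abundant of the 10 in the JNKi table. FN1 lies on chromosome 2 of GRCh37, from 216225163 to 216300796 on the minus strand, and none of its exons overlapped those of another gene. It stood at 530.7 FPKM in empty vector control, 555.2 FPKM with JUN WT and 262.3 FPKM with JUN AA. JUN WT lay beside its control, with a difference of 0.065 that fell below 0 after centring, and JUN AA lay apart at −1.01. The JUN AA call was at the limit, since alternatives ran from −0.98 to −1.32. FN1 then stood at 2044 FPKM in MRC5 cells, against 3940 FPKM for iCAFs and 5813 FPKM for iCAFs+JNKi. It was the 10th most abundant symbol in MRC5 and the 1st in both iCAFs and iCAFs+JNKi. The differences were 0.95 for iCAFs against MRC5, which reached 1.01 after centring, and 0.56 for iCAFs+JNKi against iCAFs. FN1 is spliced into several forms, and a gene-level FPKM does not separate them.

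**Figure D2:**
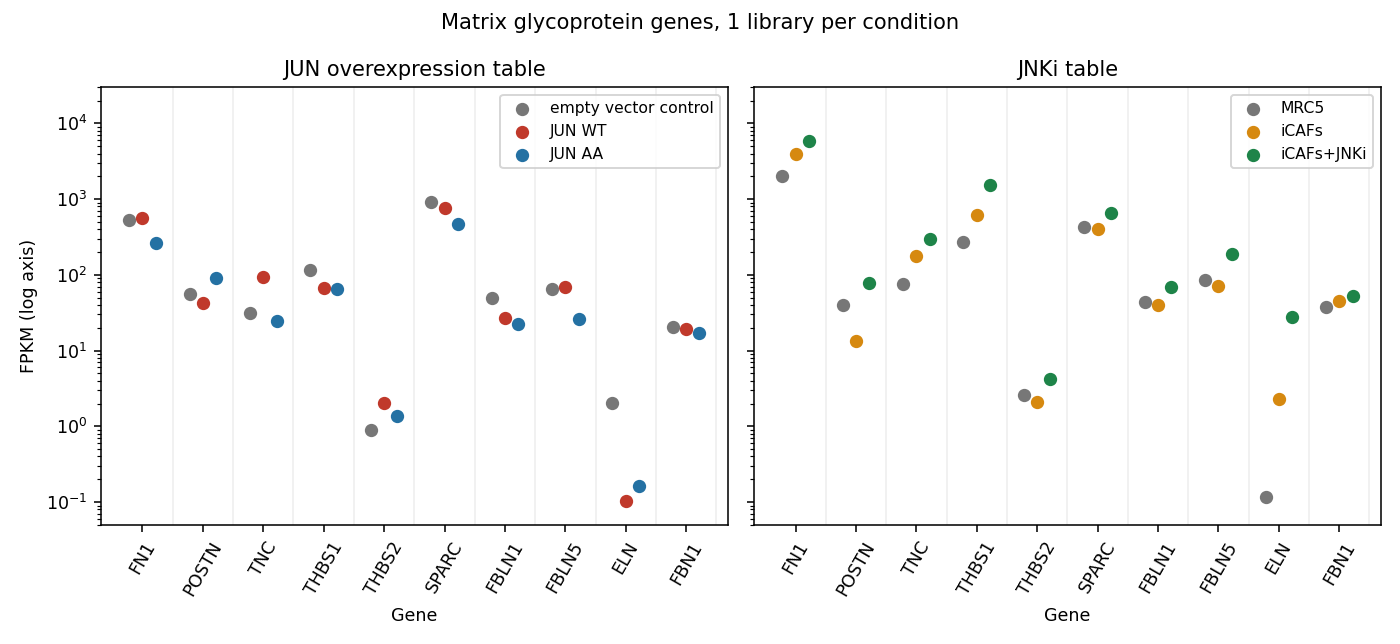
FPKM of each of the 10 genes in the 3 libraries of the JUN overexpression table and the 3 of the JNKi table, 1 point a library on a log axis. In the JNKi table FN1, TNC and THBS1 are highest in iCAFs+JNKi, and ELN spans 0.118 to 27.6 FPKM.

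POSTN was highest in JUN AA in one table, and in the other it was lowest in iCAFs and highest in iCAFs+JNKi. It encodes periostin, a collagen-binding protein of the fasciclin family, at chromosome 13 of GRCh37, from 38136720 to 38172981. It stood at 56.2 FPKM in empty vector control, 42.4 FPKM with JUN WT and 91.3 FPKM with JUN AA. It was highest in JUN AA, where most of the 10 genes were low, and its level there was 2.15 times that in JUN WT. The difference of −1.09 between JUN WT and JUN AA was −0.80 after rescaling, short of 2-fold. In the other experiment POSTN stood at 39.6 FPKM in MRC5 cells, against 13.6 FPKM for iCAFs and 77.3 FPKM for iCAFs+JNKi. The level was lowest in iCAFs, and 0.501% of genes had a lower difference than the −1.48 of iCAFs against MRC5. With the inhibitor it was 5.70 times as high as in iCAFs and 1.95 times as high as in MRC5, and the difference of 2.43 against iCAFs was exceeded by 0.187% of genes.

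TNC was the single gene of the set at least 2-fold higher in JUN WT than in control on the log2(FPKM + 1) scale, and THBS2, a low gene, joined it at 1.14 with a pseudocount of 0.1 FPKM. Tenascin C, a large hexameric protein of wound and tumour stroma, is encoded at chromosome 9 of GRCh37, from 117781854 to 117880486. It stood at 31.3 FPKM in empty vector control, 95.1 FPKM with JUN WT and 24.6 FPKM with JUN AA. JUN WT was 3.04 times its control and 3.87 times JUN AA, while JUN AA differed from control by −0.34. A difference of 1.58, that of JUN WT against control, was exceeded by 1.36% of genes. In the experiment with CM, TNC stood at 76.1 FPKM in MRC5 cells, against 175.7 FPKM for iCAFs and 296.5 FPKM for iCAFs+JNKi. The level was thus higher with CM (1.20) and higher again with the inhibitor (0.75). TNC is alternatively spliced, and its forms are not separated here.

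The thrombospondins were unequal in level. THBS1 encodes thrombospondin 1, which activates latent TGF-β and restrains vessel growth, at chromosome 15 of GRCh37, from 39873280 to 39891667. It stood at 117.3 FPKM in empty vector control, 66.7 FPKM with JUN WT and 64.7 FPKM with JUN AA. Both JUN forms were lower than control and close to each other, with differences of −0.80 and −0.85, the second of which was −1.16 after rescaling. In the JNKi table it stood at 273.7 FPKM in MRC5 cells, against 621.1 FPKM for iCAFs and 1527 FPKM for iCAFs+JNKi. The iCAFs level was 2.27 times that of MRC5 and the iCAFs+JNKi level was 2.46 times that of iCAFs, and THBS1 ranked 15th of all symbols in iCAFs+JNKi. Its exons share 448 bases with FSIP1 on the opposite strand, a gene at no more than 0.726 FPKM in any library. THBS2, its close relative, stood at 0.884 FPKM, 2.06 FPKM and 1.39 FPKM in empty vector control and then with JUN WT and with JUN AA. In MRC5, iCAFs and iCAFs+JNKi THBS2 stood at 2.59 FPKM, 2.12 FPKM and 4.21 FPKM. THBS2 was low throughout, and it shares 2249 exonic bases with the antisense RNA THBS2-AS1, which has no row in the tables, so its reads cannot be assigned with certainty. Antisense RNAs without a row also share 411 exonic bases with THBS1, 191 with SPARC, 165 with ELN and 129 with TNC. THBS2 lies at chromosome 6 of GRCh37, from 169615875 to 169654145. Of the other thrombospondins, THBS3 ran from 6.33 FPKM in JUN AA to 13.3 FPKM in empty vector control. In the JNKi table it ran from 9.13 FPKM in iCAFs+JNKi to 17.0 FPKM in MRC5. Neither THBS4 nor COMP reached 1 FPKM in any library.

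SPARC was the most abundant of the 10 in the JUN overexpression table. It encodes osteonectin, a collagen-binding protein that takes part in fibril assembly, at chromosome 5 of GRCh37, from 151040657 to 151066536. It stood at 930.1 FPKM in empty vector control, 760.6 FPKM with JUN WT and 469.5 FPKM with JUN AA. The difference of JUN AA from control was −0.98, just short of 2-fold, and −1.30 after rescaling. In the JNKi table SPARC stood at 429.4 FPKM in MRC5 cells, against 406.5 FPKM for iCAFs and 664.2 FPKM for iCAFs+JNKi. MRC5 and iCAFs were close (−0.079), and iCAFs+JNKi was 0.71 above iCAFs.

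Of the 10 genes, elastin had the largest difference in the JNKi table and the lowest level in MRC5. ELN lies at chromosome 7 of GRCh37, from 73442119 to 73484237. It stood at 2.01 FPKM in empty vector control, 0.103 FPKM with JUN WT and 0.163 FPKM with JUN AA. Both JUN libraries lay below 1 FPKM, where the difference depends most on the pseudocount, −1.45 and −1.37 with 1 FPKM against −3.38 and −3.01 with 0.1 FPKM. ELN also differed between the libraries of the other experiment, at 0.118 FPKM in MRC5 cells, against 2.33 FPKM for iCAFs and 27.6 FPKM for iCAFs+JNKi. The iCAFs+JNKi level was 11.8 times that of iCAFs, and 0.0509% of genes had a larger difference than its 3.10. ELN passed a mean of 5 FPKM only through that library.

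FBN1, which encodes fibrillin 1, was the steadiest of the 10. It lies at chromosome 15 of GRCh37, from 48700510 to 48937918. It stood at 20.8 FPKM, 19.3 FPKM and 17.1 FPKM in empty vector control and then with JUN WT and with JUN AA, and at 37.3 FPKM, 45.5 FPKM and 52.6 FPKM in MRC5 cells, the iCAFs and the iCAFs+JNKi library. No comparison of FBN1 reached a difference of 0.5 on the log2 scale. Its relative FBN2, a fibrillin of developing tissue, did not follow it: it stood at 14.0 FPKM in MRC5 cells, against 13.6 FPKM for iCAFs and 54.7 FPKM for iCAFs+JNKi.

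The fibulins kept different company. FBLN5, which encodes fibulin 5 and is needed to assemble elastic fibres, lies at chromosome 14 of GRCh37, from 92335755 to 92414331. It stood at 65.2 FPKM in empty vector control, 70.2 FPKM with JUN WT and 26.4 FPKM with JUN AA. JUN WT was close to its control, at 0.10 and below 0 after centring, and JUN AA was 1.27 lower. FBLN5 stood in the JNKi experiment at 85.5 FPKM in MRC5 cells, against 72.1 FPKM for iCAFs and 190.4 FPKM for iCAFs+JNKi, the last 2.64 times the second. FBLN1, which encodes fibulin 1, a protein of basement membranes and microfibrils, lies at chromosome 22 of GRCh37, from 45898118 to 45997015. It stood at 49.5 FPKM in empty vector control, 26.8 FPKM with JUN WT and 22.6 FPKM with JUN AA, lower with both forms of JUN. In the JNKi table FBLN1 stood at 44.5 FPKM in MRC5 cells, against 40.5 FPKM for iCAFs and 69.5 FPKM for iCAFs+JNKi. FBLN1 against control was −0.86 for JUN WT, −1.01 after centring, and −1.10 for JUN AA, so that it differed from FBLN5 with JUN WT and resembled it with JUN AA.

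The 10 genes together made up 0.365% of all FPKM in empty vector control, 0.329% with JUN WT and 0.160% with JUN AA. Their share was 0.759% for MRC5 cells, 1.35% for iCAFs and 2.42% for iCAFs+JNKi. FN1 made up 66.6% to 74.1% of that sum in the JNKi table, and 26.8% to 33.9% in the JUN overexpression table. The tables were not compared with each other. The sum of all FPKM differed between libraries too, from 494604 to 613185 in the JUN overexpression table, where JUN AA had the highest sum, and from 359947 to 399535 in the JNKi table.

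Ratios of 2 genes within a library do not depend on how that library was scaled. TNC over POSTN was 0.556 in empty vector control, 2.24 with JUN WT and 0.269 with JUN AA. It was 1.92 in MRC5 cells, 13.0 for iCAFs and 3.84 for iCAFs+JNKi. The ratio was highest in JUN WT in the first table and in iCAFs in the second. FN1 over SPARC ran from 0.559 to 0.730 in the JUN overexpression table and was 4.76, 9.69 and 8.75 in MRC5 cells, the iCAFs and the iCAFs+JNKi library. FBLN1 over FBLN5 was 0.760, 0.382 and 0.858 in empty vector control and then with JUN WT and with JUN AA. In that table the fibulins thus parted with JUN WT and not with JUN AA. The same ratio was 0.520, 0.562 and 0.365 in MRC5 cells, the iCAFs and the iCAFs+JNKi library. Without replicates, the error of a ratio is unknown.

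**Figure D3:**
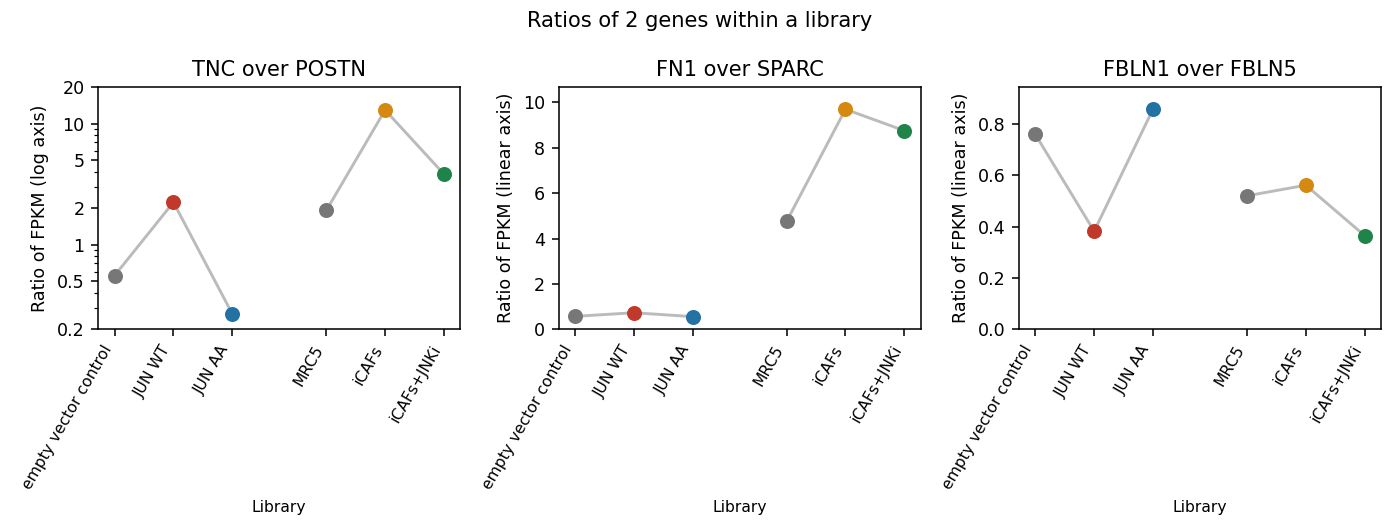
FPKM ratios of 3 pairs of genes in each library, on a log axis for TNC over POSTN and on linear axes from 0 for the other pairs. TNC over POSTN peaks at 2.24 in JUN WT and 13.0 in iCAFs. FBLN1 over FBLN5 is lowest in the first table at 0.382 in JUN WT, and in the other at 0.365 in iCAFs+JNKi.

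A wider set of 63 genes, in 4 lists of elastic fibre partners, other matricellular glycoproteins, other matrix glycoproteins and receptors, gives the setting. With JUN overexpression 42 of them passed the filter, and 44 did so in the other table. With JUN WT 4 were at least 2-fold higher than control and 10 lower, with a median of −0.40, beside 6.92% higher, 3.39% lower and a median of 0.15 over all genes. With JUN AA 2 were higher and 12 lower, with a median of −0.65, beside 5.29%, 3.77% and −0.015. In these comparisons, as reported, more of the related genes were called lower than higher, while more of all genes were called higher than lower. The balance of all genes depended on scaling. Of all genes called, 45.5% were higher with JUN WT after centring on the median gene, and 26.1% with JUN AA after rescaling. In iCAFs 4 were at least 2-fold higher than MRC5 and 3 lower, with a median of 0.13, beside 1.94%, 1.71% and −0.061. In iCAFs+JNKi 4 were at least 2-fold higher than iCAFs and 1 lower, with a median of 0.35, beside 2.25%, 1.97% and −0.099. Both medians lay above those of all genes. Between the JUN forms 6 were higher in JUN WT and 1 lower, beside 6.65% and 5.61% of all genes. The median was 0.45 (0.18 for all genes). Between iCAFs+JNKi and MRC5 13 were higher and 2 lower, beside 3.28% and 3.53% of all genes. The median there was 0.61 (−0.16 for all genes). Of 12 elastic fibre partners 2 were at least 2-fold higher and 4 lower with JUN WT, beside 6.92% and 3.39% of all genes. With JUN AA 1 partner was higher and 1 lower, beside 5.29% and 3.77%. Of 13 such partners in the JNKi table, 0 were higher and 1 lower in iCAFs against MRC5, and 2 were higher and 0 lower in iCAFs+JNKi against iCAFs. With the inhibitor, 11 of these 13 partners lay above 0 against iCAFs, as ELN did, beside 37.4% of all genes. The median of the partners was 0.54. Among 9 other matricellular genes, 1 was higher and 3 lower with JUN WT, 1 higher and 2 lower with JUN AA, and 1 higher and 0 lower in iCAFs+JNKi against iCAFs. The shares of all genes called in these comparisons were those just given for the partners. Among 8 receptors no comparison with a control or parent condition had more than 1 gene past 2-fold in either direction. The other matrix glycoproteins lay mostly on one side in JUN AA, where 8 of 13 were at least 2-fold lower and none higher. In iCAFs against MRC5 the other matricellular genes held all 4 of the related genes at least 2-fold higher, beside 1.94% of all genes.

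Of the related genes that averaged 5 FPKM or more, those with the largest difference in each direction were as follows, and some lower genes differed by more, such as SMOC1 at 2.30 in iCAFs against MRC5. LOX, the enzyme that crosslinks collagen and elastin, stood at 51.1 FPKM in empty vector control, 160.1 FPKM with JUN WT and 91.3 FPKM with JUN AA. MFAP2, a microfibril protein, stood at 67.1 FPKM, 14.8 FPKM and 41.5 FPKM in those libraries. With JUN WT, LOX was thus higher and MFAP2 lower. LOXL1, the elastin-directed relative of LOX, stood at 91.6 FPKM, 204.3 FPKM and 192.5 FPKM, and AEBP1, a collagen-binding protein, at 38.3 FPKM, 14.8 FPKM and 11.6 FPKM. For LOXL1 and AEBP1 the forms of JUN lay close together. TGFBI, the other fasciclin protein of the set beside periostin, stood at 265.3 FPKM in MRC5 cells, against 904.9 FPKM for iCAFs and 1088 FPKM for iCAFs+JNKi. It lacked the low point of POSTN in iCAFs. MFAP4, a microfibril-associated protein, stood at 43.7 FPKM, 15.0 FPKM and 37.4 FPKM, lowest in iCAFs. SDC4, a heparan sulfate proteoglycan that works with integrins in binding fibronectin, stood at 53.2 FPKM, 74.5 FPKM and 29.2 FPKM, and FBN2 completed this group with the values above. Of the integrin subunits on the receptor list, ITGA5 and ITGB1, which together bind fibronectin, stood at 135 FPKM and 921 FPKM in MRC5. They stood at 144 FPKM and 1212 FPKM in iCAFs, and at 202 FPKM and 1307 FPKM in iCAFs+JNKi. With JUN overexpression, ITGA5 stood at 362 FPKM in empty vector control, 430 FPKM with JUN WT and 271 FPKM with JUN AA. ITGB1 stood at 213 FPKM, 329 FPKM and 232 FPKM in those libraries.

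**Figure D4:**
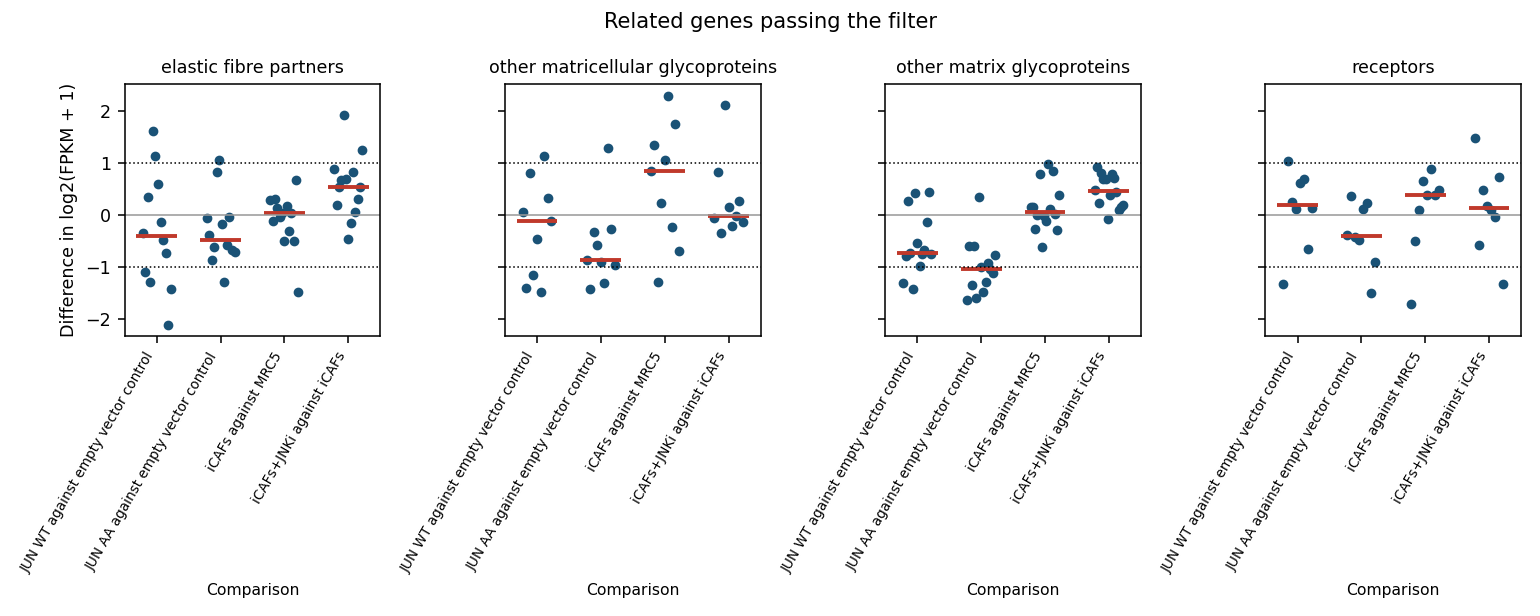
Differences in log2(FPKM + 1) of the genes of the 4 related lists that passed the filter, 1 dot a gene, with the median as a bar and 2-fold as dotted lines. In JUN AA 8 of 13 other matrix glycoproteins lie beyond 2-fold on the low side, beside 3.77% of all genes. In iCAFs against MRC5 4 other matricellular genes lie beyond it on the high side, beside 1.94% of all genes.

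The genes most like a member were sought by Euclidean distance over 4 log2 differences (JUN WT and JUN AA against control, iCAFs against MRC5, iCAFs+JNKi against iCAFs) among 5753 genes that averaged 5 FPKM or more in each table. ELN lay farthest from 0 of the 10, and its nearest genes were DLL4, COL4A1 and VCAN, at distances of 1.41, 1.56 and 1.73. ELN itself lay 4.01 from 0. Its JUN WT and JUN AA differences come from an experiment where it averaged 0.759 FPKM, did not pass the filter and depended on the pseudocount. Its distances and neighbours share that limit. POSTN, chosen after its values were seen, had DCN as its nearest gene at 0.60. DCN, the small proteoglycan decorin, stood at 296.4 FPKM in MRC5 cells, against 106.8 FPKM for iCAFs and 409.1 FPKM for iCAFs+JNKi, and so had its low point in iCAFs as POSTN did. THBS1, chosen in the same way, had ADAM19 at 0.26 and ITGA1 at 0.39. FBN1 lay closest to 0 of the 10, at 0.45. Such distances rest on 6 libraries, 1 per condition, and share the iCAFs and control libraries between differences.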

How the data were processed

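Per the labels and the methods of the study, RNA was extracted with Trizol, libraries were made with a NEBNext Ultra RNA kit, reads were aligned to hg19 with HISAT2 2.1.0, and StringTie 2.1.1 gave the deposited FPKM values. The gene annotation, strand setting and read number are not given in the sources used here, so counting error could not be computed. Values below 0.5 FPKM showed a common ratio near 1 between libraries of the JNKi table (1.01 to 1.07) and none in the other table, which gave no read number. The authors deposited 2 tables of 3 libraries each, with 25370 rows, which hold 25368 symbols with the more abundant row taken for a repeated symbol.

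From these, log2(FPKM + 1) differences were computed with Python 3.11.15, pandas 2.3.3 and numpy 2.4.6, and checked on simulated data. Genes averaging 1 FPKM or more in a table formed its background, and a difference of 1 was called 2-fold. With 1 library per condition no test was possible. No source says whether the libraries came from separate cultures. Positions are from GENCODE on GRCh37, and upstream sequences are from RefSeq on GRCh38.p14, whose coordinates were not mixed with the former.

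The 10 genes, the 4 related lists and the markers were chosen with earlier results of these data known. Named besides the 10 genes were, in each of 4 comparisons, the related genes with the largest rise and fall among those averaging 5 FPKM or more, and the 3 genes nearest in pattern to the member lying farthest from 0. The other genes named, including SMOC1, the relatives by family, ITGA5, ITGB1 and the neighbours of POSTN and THBS1, were chosen after their values were seen. Alternatives were a pseudocount of 0.1 FPKM, no filter, a filter at 5 FPKM, rescaling to a sum of 1000000, centring on the median gene and upper-quartile scaling.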

Additional observations from a re-analysis of the deposited data

How the results depend on the processing

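With 1 library per condition no library could be left out, and depth is unknown. No paired analysis was possible because no result comes from a test. Of 108 values of counts and medians over the 10 genes under 6 alternatives, 101 stayed within the limits of 1.5 times for a count and 0.25 for a median, 7 moved beyond them and 0 changed direction. In JUN WT against empty vector control, 2 genes were at least 2-fold higher with a pseudocount of 0.1 FPKM, beside 1229 of 10311 background genes. After centring on the median gene 1 was at least 2-fold lower, beside 522 of 10311. With no filter 1 was at least 2-fold lower, beside 369 of 25368. After rescaling to a sum of 1000000, 5 genes were at least 2-fold lower in JUN AA against empty vector control, with a median of −1.16. At that setting 957 of 10311 background genes were lower there, with a median of −0.29. In JUN WT against JUN AA 0 of the set were at least 2-fold lower after rescaling, beside 364 of 10311 background genes. The median was 0.65, against 0.47 for all genes. The cause of these shifts was not tested. Of 351 values for single genes, 320 stayed within the limit and 31 moved beyond it. A 2-fold call was gained or lost in 13 of them, for FN1, POSTN, THBS1, THBS2, SPARC and FBLN1, and the sign changed in 7, for FN1, FBLN5, THBS1 and FBN1 in comparisons where they were not called. Over the alternatives, the number of background genes called higher ran from 436 to 1229 (714 as reported) in JUN WT against empty vector control, 338 to 802 (545) in JUN AA against it, 411 to 1770 (686) in JUN WT against JUN AA, 167 to 318 (228) in iCAFs against MRC5, 169 to 411 (265) in iCAFs+JNKi against iCAFs and 266 to 581 (386) in iCAFs+JNKi against MRC5. The number called lower ran, in the same order, from 258 to 527 (350), 266 to 957 (389), 364 to 822 (578), 128 to 356 (202), 147 to 386 (232) and 263 to 706 (416).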

Other observations

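The CCN proteins, small matricellular proteins that bind integrins, were also measured and were looked at after the values were seen. CTGF (CCN2) stood at 93.3 FPKM in empty vector control, 34.8 FPKM with JUN WT and 34.3 FPKM with JUN AA, and at 116.2 FPKM in MRC5 cells, against 297.7 FPKM for iCAFs and 533.2 FPKM for iCAFs+JNKi. It was thus lower with both forms of JUN and higher with CM and again with the inhibitor, as THBS1 was. CYR61 (CCN1) stood at 116.7 FPKM in MRC5 cells, against 211.1 FPKM for iCAFs and 202.5 FPKM for iCAFs+JNKi, and so did not differ between the latter by as much as CTGF. It stood at 91.8 FPKM in empty vector control, 96.2 FPKM with JUN WT and 49.8 FPKM with JUN AA. NOV (CCN3) stood at 4.84 FPKM, 9.31 FPKM and 3.66 FPKM there. In MRC5, iCAFs and iCAFs+JNKi NOV stood at 14.0 FPKM, 5.18 FPKM and 3.89 FPKM, lowest where CTGF was highest. WISP1 (CCN4) stood at 0.993 FPKM, 1.35 FPKM and 9.28 FPKM in those libraries, and below 1 FPKM with JUN overexpression. WISP2 (CCN5) exceeded 1 FPKM only in empty vector control and JUN AA. With 1 library per condition these differences have no replicate check.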
